A study of Mus musculus with 2 samples.

Results

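The genes described here are the 7 named genes of the Dlk1-Dio3 imprinted cluster, Dlk1, Meg3, Rtl1, Rian, Mirg, Dio3 and Begain, among 55536 annotated genes. They were chosen by symbol, as the transcript tables pair it with the gene identifier, and all 7 were found. Total RNA was sequenced from whole adrenal glands of female mice aged 25 days of the strain B6CASTF1/J, an F1 hybrid with a CAST parent, without any treatment or engineered allele in the labels. The 2 libraries, replicate 2 and replicate 1, formed 1 group, and each was made from 300 ng of RNA with a directional kit and ERCC spike-ins. Where the labels describe the tissue they give separate animals, but the donor field and the library description are the same for both, so each SD below covers no more than the spread of this pair, possibly of a technical kind. With 1 group there was no comparison between conditions, and the results are the levels of the cluster genes, the split of each over its transcripts, and the differences between the libraries.

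The cluster lies on mouse chromosome 12 and is read differently from the copies inherited from the father and the mother. The protein-coding genes Dlk1, Rtl1 and Dio3 are known to be read mainly from the paternal copy, while Meg3, Rian and Mirg are long non-coding RNAs read from the maternal copy, and Rian and Mirg carry many of the small nucleolar RNAs and microRNAs of the region. DLK1 is a transmembrane relative of the Notch ligands, known as preadipocyte factor, which marks adrenal capsule and chromaffin cells in rodents. The tables hold no allele counts, so the parental origin of the reads was not measured. Reads of this hybrid were counted on a single build, mm10. Whether both parental copies were counted equally well was not tested, which limits ratios between paternal and maternal genes. In bulk tissue, fewer cells of a type and less RNA per cell cannot be told apart.

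Replicate 2 had 33728646 expected counts and replicate 1 had 19366343. Of these, 22306477 in replicate 2 and 7038809 in replicate 1 fell on nuclear coding genes other than Lars2, so the cluster genes had fewer reads to rest on in replicate 1. For this reason levels are given both as deposited TPM and as coding TPM, which is TPM rescaled to the same fixed sum over nuclear coding genes other than Lars2. The tissue carried its defining markers in both libraries, with all 4 cortical markers and all 6 medullary markers at 1 TPM or more. The 5 liver markers summed to 10.8 coding TPM in replicate 2 and 885 coding TPM in replicate 1, with Gc at 0 counts in replicate 2, and all 5 were lower in replicate 2. The 5 adipocyte markers summed to 2761 coding TPM in replicate 2 and 3648 in replicate 1, and all 5 were also lower in replicate 2. The 6 markers of capsule and fibroblasts summed to 379 coding TPM in replicate 2 and 539 in replicate 1, with 3 of the 5 tested lower in replicate 2. The part of these other cell types in the levels of the cluster genes was not tested.

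Of the 7 cluster genes, 4 reached 1 TPM in both libraries, namely Meg3, Dlk1, Rian and Mirg. Begain and Rtl1 reached it in replicate 2 alone, and Dio3 in neither. Across all annotated genes, 12460 of 55536, or 22.4%, were at 1 TPM or more in both libraries. Among 10155 long non-coding genes the share was 3.56%, and among 22015 nuclear coding genes it was 51.5%. Of the 4 coding cluster genes only 1, Dlk1, reached 1 TPM in both. The detection counts of coding genes in the lists below are to be read beside that 51.5%. On the coding TPM scale all 7 genes were above 1 in both libraries. The 7 genes together held 39086.7 counts in replicate 2 and 10950.8 in replicate 1, or 0.175 in replicate 2 and 0.156 in replicate 1 for every 100 nuclear coding counts, among which the non-coding Meg3, Rian and Mirg are not counted. Meg3, Rian and Mirg made up 72.2% of the cluster genes' counts in replicate 2 and 72.8% in replicate 1.

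**Figure D1:**
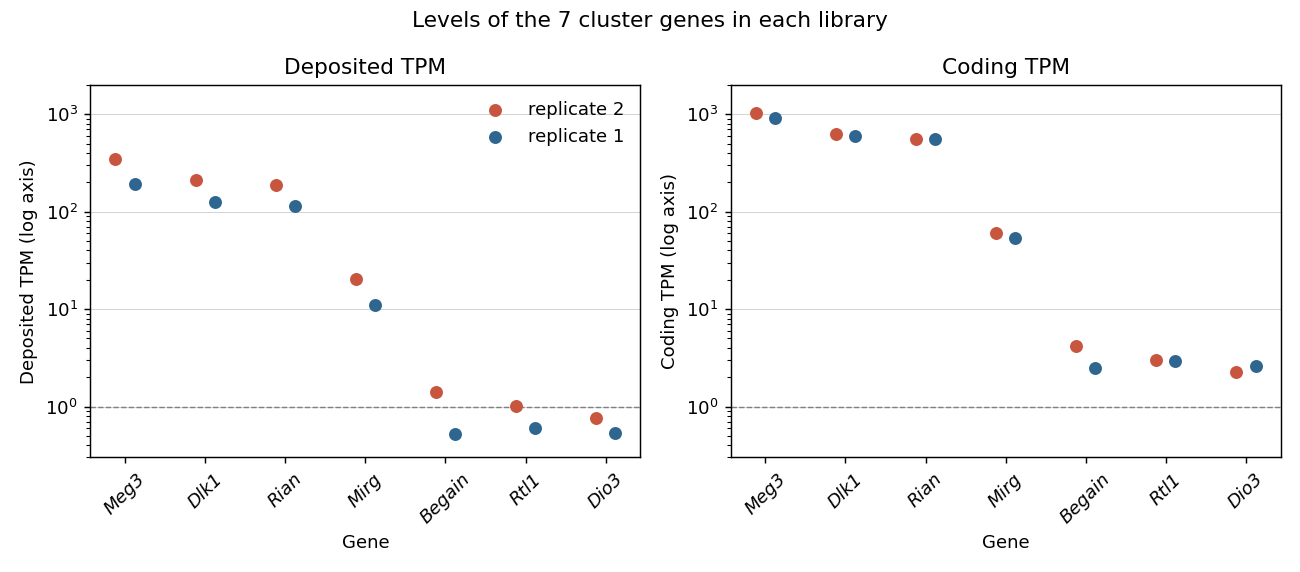
Levels of the 7 cluster genes, one point per library, as deposited TPM (left panel) and coding TPM (right panel), both on log axes, with replicate 2 left of replicate 1 for each gene and a dashed line at 1. Meg3, Dlk1 and Rian stood above 100 TPM in both libraries, Mirg lay between 11.14 and 20.39 TPM, and the other genes lay near or under 1 TPM.

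Among the coding genes, Dlk1 was by far the most abundant. It lies on chromosome 12 from 109452823 to 109463336 on the plus strand (mm10, GENCODE M21). Dlk1 was at 213.3 TPM in replicate 2, against 124.52 TPM in replicate 1, from 10563 and 2886 counts, with a mean of 169 ± 62.8 TPM (SD, n = 2). The bounds that the authors deposited with these values ran from 203 to 216 TPM in replicate 2 and from 113 to 128 TPM in replicate 1, so the libraries differed by more than those bounds. On the coding TPM scale the values were closer, at 630 in replicate 2 and 602 in replicate 1. By mean TPM, Dlk1 stood at rank 206 among 22015 nuclear coding genes.

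Rtl1 was low in both libraries. This gene, derived from a retrotransposon and needed for the fetal capillaries of the placenta in mice, lies from 109589193 to 109600330 on the minus strand of chromosome 12. It was at 1.01 TPM in replicate 2, against 0.60 TPM in replicate 1, from 198 and 62 counts, or 0.805 ± 0.290 TPM (SD, n = 2). Within each library Rtl1 stood at 0.00474 times Dlk1 in replicate 2 and 0.00482 times Dlk1 in replicate 1, both as TPM.

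The coding exon of Rtl1 lies opposite 6 microRNA hairpins, which are read from the plus strand and pair perfectly with the Rtl1 transcript. Their mature forms are shown because each is, base for base, complementary to Rtl1. RefSeq (GRCm38.p6) gives 11 mature sequences for these hairpins. All 11 have their reverse complement in transcript Rtl1-201 of GENCODE M21, which follows from their position opposite the exon. Capitals mark the seed, bases 2 to 8.

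mmu-miR-431-5p: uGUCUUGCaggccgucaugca

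mmu-miR-431-3p: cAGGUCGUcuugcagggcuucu

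mmu-miR-433-5p: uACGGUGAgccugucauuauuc

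mmu-miR-433-3p: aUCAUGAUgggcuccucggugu

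mmu-miR-127-5p: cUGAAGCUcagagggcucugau

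mmu-miR-127-3p: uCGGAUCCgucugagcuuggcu

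mmu-miR-434-5p: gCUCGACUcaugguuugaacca

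mmu-miR-434-3p: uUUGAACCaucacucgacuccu

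mmu-miR-432: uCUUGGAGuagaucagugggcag

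mmu-miR-136-5p: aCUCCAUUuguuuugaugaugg

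mmu-miR-136-3p: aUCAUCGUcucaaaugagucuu

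No seed was shared among these 11. Over the whole interval from Begain to Dio3, RefSeq gave 113 mature microRNAs with 104 different seeds. Only 9 seeds were shared, each by a pair, which together make 18 mature forms. The pair from Mir379 and Mir411 is shown because they share the seed and differ at 2 of 22 bases.

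mmu-miR-379-3p: uAUGUAACaugguccacuaacu

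mmu-miR-411-3p: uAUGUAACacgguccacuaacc

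Whether these microRNAs were made in the gland could not be read from the tables. The gene table held 69 microRNA and 23 small nucleolar RNA entries in the interval. All 23 small nucleolar RNA entries and 61 of the microRNA entries had a deposited effective length of 0, so that the table could give them no count. Of the remaining 8 microRNA entries, 4 had any count, led by Mir433 with 9 counts in replicate 2 and 0 in replicate 1. Mir433 is one of the hairpins opposite Rtl1, and since the strand setting of the counting is not given in the sources used here, its reads cannot be told apart from those of Rtl1. The second quantification gave 0 counts for every microRNA entry of the interval.

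Dio3 had the lowest mean level of the 7 genes, although Begain was slightly lower in replicate 1. It encodes the deiodinase that inactivates thyroid hormone and lies from 110279068 to 110281097 on the plus strand of chromosome 12. Dio3 was at 0.77 TPM in replicate 2, against 0.54 TPM in replicate 1, from 34 and 13 counts, or 0.655 ± 0.163 TPM (SD, n = 2). As a ratio within each library, it was 0.00361 times Dlk1 in replicate 2 and 0.00434 times Dlk1 in replicate 1. The divergent non-coding gene Dio3os, whose start lies 895 bases from that of Dio3, was higher. Dio3os was at 11.69 TPM in replicate 2, against 3.36 TPM in replicate 1, from 329 and 54 counts, which makes 15.2 times Dio3 in replicate 2 and 6.22 times Dio3 in replicate 1.

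Begain, which encodes a partner of the synaptic guanylate kinases and lies at the proximal end of the cluster, was also low. It lies from 109032187 to 109068217 on the minus strand. Begain was at 1.40 TPM in replicate 2, against 0.52 TPM in replicate 1, from 75 and 20 counts, or 0.960 ± 0.622 TPM (SD, n = 2). Its deposited bounds, 1.10 to 1.95 TPM in replicate 2 and 0.395 to 1.19 TPM in replicate 1, overlapped.

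Meg3 was the most abundant gene of the cluster. Also known as Gtl2, it lies from 109541001 to 109571726 on the plus strand of chromosome 12. Meg3 was at 350.86 TPM in replicate 2, against 190.63 TPM in replicate 1, from 18767.7 and 5080.83 expected counts, or 271 ± 113 TPM (SD, n = 2). By mean TPM it stood at rank 6 among the 10155 long non-coding genes, behind Gm42418, Gm26917, Malat1, Rmrp and Neat1. Gm42418 was at 3749.66 TPM in replicate 2, against 165241.5 TPM in replicate 1. TPM has a fixed sum, so a level of this size leaves less for every other gene in replicate 1. Meg3 was 1.64 times Dlk1 in replicate 2 and 1.53 times Dlk1 in replicate 1, or 1.59 ± 0.0806 (SD, n = 2), and it was higher than Dlk1 in both libraries.

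Rian followed at rank 7 among the long non-coding genes. It is the host of a small nucleolar RNA array and lies from 109603940 to 109661716 on the plus strand. Rian was at 187.65 TPM in replicate 2, against 115.05 TPM in replicate 1, from 8397 and 2666 counts, or 151 ± 51.3 TPM (SD, n = 2). On the coding TPM scale the libraries were nearly alike, at 555 in replicate 2 and 556 in replicate 1. Of the 23 small nucleolar RNA entries, 8 lie in a Rian exon, 5 in a Rian intron and 10 outside all 7 genes. Rian was 0.535 times Meg3 in replicate 2 and 0.604 times Meg3 in replicate 1. The second quantification put these ratios at 0.576 and 0.839 in the same libraries.

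Mirg, the host of the distal microRNA array, was about an order of magnitude lower. It lies from 109729764 to 109749460 on the plus strand. Mirg was at 20.39 TPM in replicate 2, against 11.14 TPM in replicate 1, from 1052 and 223 counts, or 15.8 ± 6.54 TPM (SD, n = 2), which put it at rank 43 among the long non-coding genes. As a ratio to Meg3 on TPM it was 0.0581 in replicate 2 and 0.0584 in replicate 1. By expected counts the ratio was 0.0561 in replicate 2 and 0.0439 in replicate 1, so it was not alike between libraries. TPM divides by effective length, which for Mirg was 1640.55 bases in replicate 2 and 1221.93 in replicate 1. Of the 69 microRNA entries, 15 overlap Mirg, 4 of them lying within an exon, 5 partly in an exon and 6 in an intron, 1 of these on the opposite strand.

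The order of the mean levels was Meg3, Dlk1, Rian, Mirg, Begain, Rtl1 and Dio3. Replicate 2 had this order, and in replicate 1 only Begain moved, to below Rtl1 and Dio3. On deposited TPM the ranges of the libraries overlapped between Meg3 and Dlk1, Dlk1 and Rian, Begain and Rtl1, and Rtl1 and Dio3. Only the steps from Rian to Mirg and from Mirg to Begain were free of overlap. On coding TPM, of these neighbouring pairs, the ranges overlapped for Begain and Rtl1, and the ranges of Begain and Dio3, which are not neighbours, overlapped as well. No p-value was taken from these comparisons, since 2 values against 2 allow an exact two-sided permutation p of 0.333 at the lowest.

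The interval from the outer end of Begain to that of Dio3 spans 1.25 Mb, chr12:109032187-110281097, and holds 122 annotated genes, 101 of them on the plus strand. Of these, 8 were at 1 TPM or more in both libraries, and 101 had no count in either. Besides the 4 cluster genes already named, the 8 were Dio3os, Gm26945, Gm37899 and the microRNA entry Mir1197, whose 6.06 TPM in replicate 2, against 2.91 TPM in replicate 1 rest on 4 counts and 1 count. Gm37899, of the annotation type TEC, between Rian and Mirg, was at 2.51 TPM in replicate 2, against 1.32 TPM in replicate 1. Gm26945, which lies within the span of Rian on the same strand, was at 2.54 TPM in replicate 2, against 1.92 TPM in replicate 1. B830012L14Rik, a long non-coding gene upstream of Mirg, was at 2.19 TPM in replicate 2, against 0.78 TPM in replicate 1. The stretch between Mirg and Dio3os held no gene with 10 or more counts in both libraries.

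**Figure D2:**
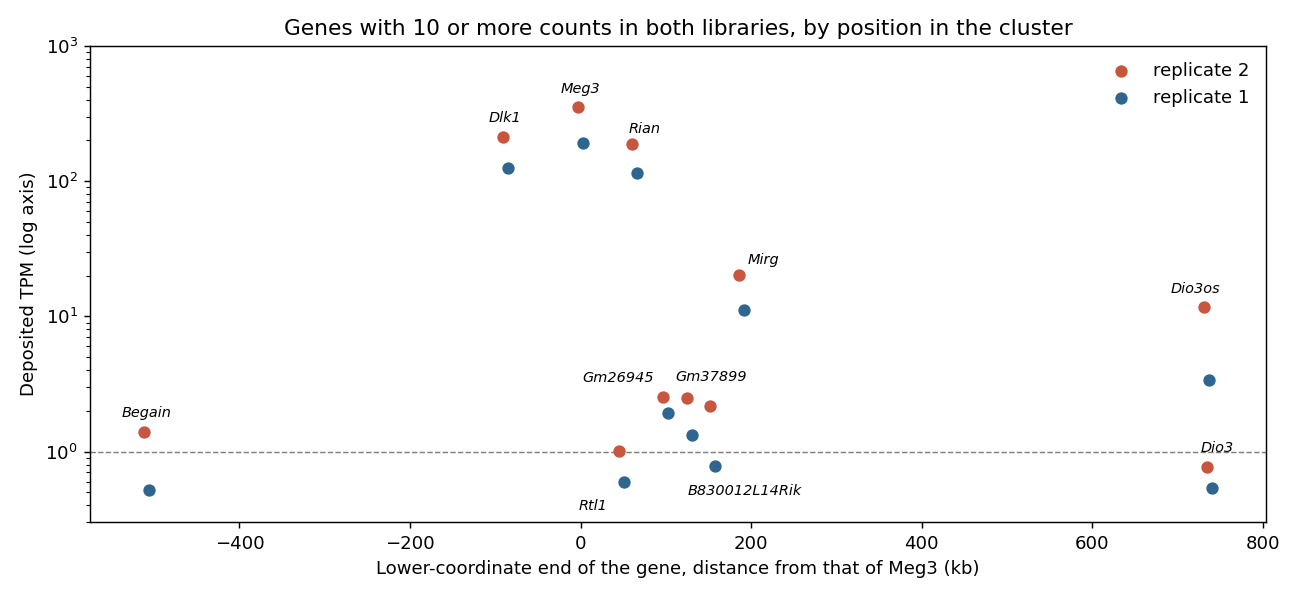
Deposited TPM (log axis) of the genes of the interval with 10 or more counts in both libraries, against the distance of their lower-coordinate end from that of Meg3 in kb, with replicate 2 drawn left of replicate 1 and a dashed line at 1 TPM. The high levels lie between Dlk1 at -88.2 kb and Mirg at 189 kb, while Begain at -509 kb and Dio3 at 738 kb are near or under 1 TPM.

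Between the libraries, Dlk1, Meg3 and Mirg were higher in replicate 2, while Rian and Rtl1 did not pass the test. Ratios are log2 of replicate 2 over replicate 1 from TMM-scaled counts, and each gene was tested by an exact binomial test, adjusted by Benjamini-Hochberg over the 11542 genes whose counts averaged 100 or more. The test compares these libraries only and covers counting error only. Dlk1 differed by 0.19 (95% Clopper-Pearson interval 0.13 to 0.25, exact binomial adjusted p = 5.1e-09). Meg3 differed by 0.20 (0.16 to 0.25, exact binomial adjusted p = 1.2e-17). These differences are small, and both genes lie near the upper quartile of all tested genes, at 0.19.

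Mirg showed the largest difference of the 5 tested cluster genes, 0.55 (0.34 to 0.77, exact binomial adjusted p = 8.7e-07), which was at or above 96.4% of all tested genes. Rian was at -0.03 (-0.09 to 0.04, exact binomial adjusted p = 0.54) and Rtl1 at -0.01 (-0.43 to 0.43, exact binomial adjusted p = 0.97). With spike-in scaling the values were 0.10 for Rian and 0.12 for Rtl1, and 4 of the 5 tested cluster genes were called, as were 46.4% of all tested genes. Begain at 0.22 (-0.50 to 1.01) and Dio3 at -0.29 (-1.26 to 0.75) were under the count minimum and were not tested.

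Thus 3 of the 5 tested cluster genes were called, where 33.5% of all tested genes were called in either direction. All 3 were higher in replicate 2, against 17.6% of all tested genes called in that direction. None of the 5 was 2-fold or more apart, as were 1.32% of all tested genes. The median log2 ratio was 0.19 over the 5 and 0.03 over all tested genes. Scaling by total counts moved the median of all tested genes to 0.91 and that by spike-ins to 0.16, so the directions are relative to the scale used. Under total counts all 5 were called, as were 98.4% of all tested genes.

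Among the other genes of the interval, Dio3os was higher in replicate 2 by 0.92 (0.50 to 1.37, exact binomial adjusted p = 2.9e-05). B830012L14Rik was likewise higher in replicate 2, by 0.75 (exact binomial adjusted p = 0.0011).

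**Figure D3:**
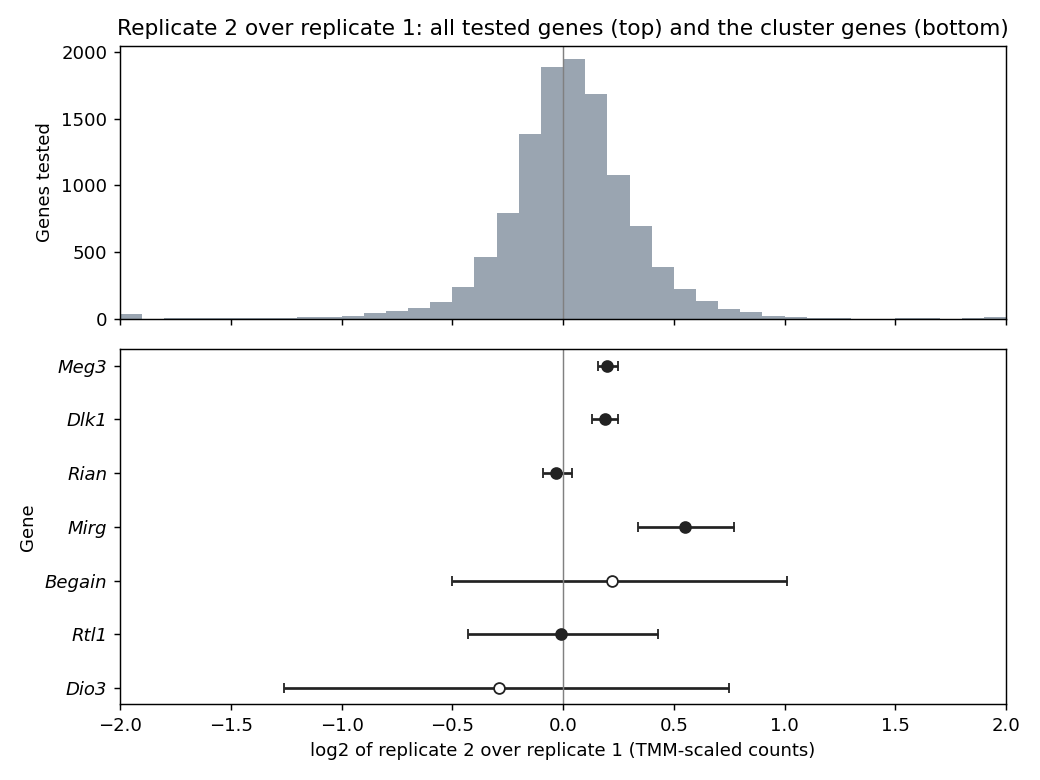
Histogram of the log2 ratio of replicate 2 over replicate 1 for the 11542 tested genes (top, values beyond the axis gathered in the end bars) and the ratio of each cluster gene with its 95% Clopper-Pearson interval (bottom, filled points tested, open points under the count minimum). The intervals of Meg3, Dlk1 and Mirg lie above 0, and those of the other 4 genes include 0.

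Dlk1 is known in mice to be spliced into a full-length form and shorter forms. The extracellular part of the full-length form can be shed at a cleavage site near the membrane. Some of the shorter forms lack this site and stay bound to the membrane. Which of the transcripts below hold the site was not determined. The annotation holds 10 Dlk1 transcripts. The leading one, Dlk1-205, which has the whole last coding exon and 1155 coding bases, took 59.7% of the gene's TPM in replicate 2 and 46.04% in replicate 1. Together, the 2 transcripts with the whole exon took 59.7% in replicate 2 and 46.0% in replicate 1, or 52.9 ± 9.66% (SD, n = 2). The 5 transcripts that keep both ends of this exon but splice out part of it took 32.7% in replicate 2 and 34.5% in replicate 1. Their mean was 33.6 ± 1.27% (SD, n = 2). Most of the remaining TPM was on 2 transcripts with incomplete annotation, at 7.33% in replicate 2 and 19.4% in replicate 1. One of them, Dlk1-209, runs from 109459843 to 109460475 but has only 483 bases, so it too is spliced inside this part of the gene. It took 5.71% in replicate 2 and 18.77% in replicate 1, which the 33.6% leaves out. The share of all spliced forms was therefore higher than 33.6%, and the near-equal values of the 5 transcripts do not cover it. Under the second quantification the transcripts with the whole exon took 46.3% in replicate 2 and 52.1% in replicate 1, and those with part spliced out took 43.2% and 36.3% in the same libraries. Thus replicate 2 had the higher share of the whole exon in the first quantification and the lower one in the second.

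The stretch that distinguishes these forms is shown because it accounts for the whole difference in coding length between these forms. It is chr12:109459833-109460117 on the plus strand (mm10), 285 bases that are wholly coding in Dlk1-205 and are all absent from Dlk1-204. Capitals mark the 153 bases, 109459893 to 109460045, that all 5 shorter transcripts lack.

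Dlk1 coding stretch: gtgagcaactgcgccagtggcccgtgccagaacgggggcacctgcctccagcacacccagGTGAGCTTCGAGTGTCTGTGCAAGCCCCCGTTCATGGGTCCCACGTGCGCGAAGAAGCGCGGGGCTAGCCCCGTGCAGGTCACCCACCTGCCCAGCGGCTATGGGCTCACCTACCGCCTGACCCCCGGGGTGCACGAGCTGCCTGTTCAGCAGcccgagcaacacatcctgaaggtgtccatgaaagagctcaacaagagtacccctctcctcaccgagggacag

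Of the shorter forms, Dlk1-204 with 870 coding bases led, at 16.27% of the gene's TPM in replicate 2 and 22.24% in replicate 1. Dlk1-203 with 936 coding bases, which lacks 219 bases of the stretch, was at 7.78% in replicate 2 and 3.36% in replicate 1. The second quantification put Dlk1-204 at 19.6% in replicate 2 and 15.2% in replicate 1, and Dlk1-203 at 20.9% and 11.9% in the same libraries. All these losses are multiples of 3 bases.

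Meg3 had 11 annotated transcripts with several starts, of which Meg3-201 had 0 counts in both libraries and both quantifications. Meg3-205 led in both libraries, at 28.54% of the gene's TPM in replicate 2 and 23.17% in replicate 1, whereas Meg3-202 led in both under the second quantification. The longest transcript, Meg3-209 with 14548 bases, took 43.2% of the gene's counts in replicate 2 and 42.4% in replicate 1, but 5.09% and 4.77% of its TPM, since TPM divides by length. Its level as a share of counts was thus alike between libraries and, at 43.9% and 43.5%, between quantifications.

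RefSeq gives a pair of start windows for Meg3, each from 250 bases before to 50 after a start. The 3 transcripts that begin in the upstream window took 38.5% of the gene's counts in replicate 2 and 37.0% in replicate 1. The upstream window is shown because Meg3-205, which has the highest TPM of the Meg3 transcripts in the first quantification, begins in it. It is chr12:109540746-109541045 on the plus strand (GRCm38.p6). Capitals mark TGACGTCA, the cAMP response element, 57 bases before the start, and TATAAA, the TATA box, 25 bases before it, which here overlaps its own match on the other strand.

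Meg3 start window: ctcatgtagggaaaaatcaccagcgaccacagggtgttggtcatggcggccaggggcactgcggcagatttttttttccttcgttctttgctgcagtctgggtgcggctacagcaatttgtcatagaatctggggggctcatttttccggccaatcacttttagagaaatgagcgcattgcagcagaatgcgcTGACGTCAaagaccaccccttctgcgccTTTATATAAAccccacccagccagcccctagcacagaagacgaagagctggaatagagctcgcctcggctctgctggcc

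Searched on both strands, TGACGTCA was in 1.79% and TATAAA in 13.6% of 32851 windows of the same length. Both were in 56 windows, or 0.17%. TGACGTCA was in no other window of the 6 cluster genes that had one, and TATAAA was in the window of Dio3 as well. The GC content of the windows was 69.0% for Dio3, 71.3% to 81.3% for Begain and 55.7% for Dlk1. It was 53.7% for the upstream and 50.3% for the downstream window of Meg3, 51.3% for Mirg and 49.3% for Rian. The median over all windows was 52.7%. A match is a description of the sequence and not a measured binding site.

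Rian had 20 annotated transcripts. Rian-202 led, at 30.15% of the gene's TPM in replicate 2 and 27.64% in replicate 1, followed by Rian-213 at 20.65% in replicate 2 and 20.86% in replicate 1. Under the second quantification Rian-202 was at 23.7% in replicate 2 and 17.4% in replicate 1, where Rian-213 led at 20.7%. Both begin in the distal part of the gene. The transcripts that begin in the RefSeq start window of Rian took 10.4% of its TPM in replicate 2 and 15.0% in replicate 1.

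Mirg had 12 annotated transcripts. Mirg-201 led in replicate 2 with 32.05% of the gene's TPM, against 18.27% in replicate 1, where Mirg-207 led with 19.89%. The 3 transcripts that begin in the RefSeq start window of Mirg held 0 counts in replicate 2 and 6.05 in replicate 1. Under the second quantification they took 10.7% of the gene's TPM in replicate 2 and 6.48% in replicate 1, with Mirg-206 at 22.0 and 3.4 counts in the same libraries. That window, chr12:109734731-109735030 on the plus strand (GRCm38.p6), is shown because it holds the whole Mir668 and Mir485 hairpins, marked in capitals, so that the annotated start lies among the hairpins.

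Mirg start window: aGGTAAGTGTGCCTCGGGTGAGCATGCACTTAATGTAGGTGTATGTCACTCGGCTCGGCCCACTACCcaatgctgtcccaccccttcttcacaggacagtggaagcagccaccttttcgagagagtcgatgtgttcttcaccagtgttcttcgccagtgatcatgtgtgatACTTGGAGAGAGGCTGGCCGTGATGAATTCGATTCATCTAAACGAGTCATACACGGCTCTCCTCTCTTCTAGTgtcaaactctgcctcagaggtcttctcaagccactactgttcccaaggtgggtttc

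**Figure D4:**
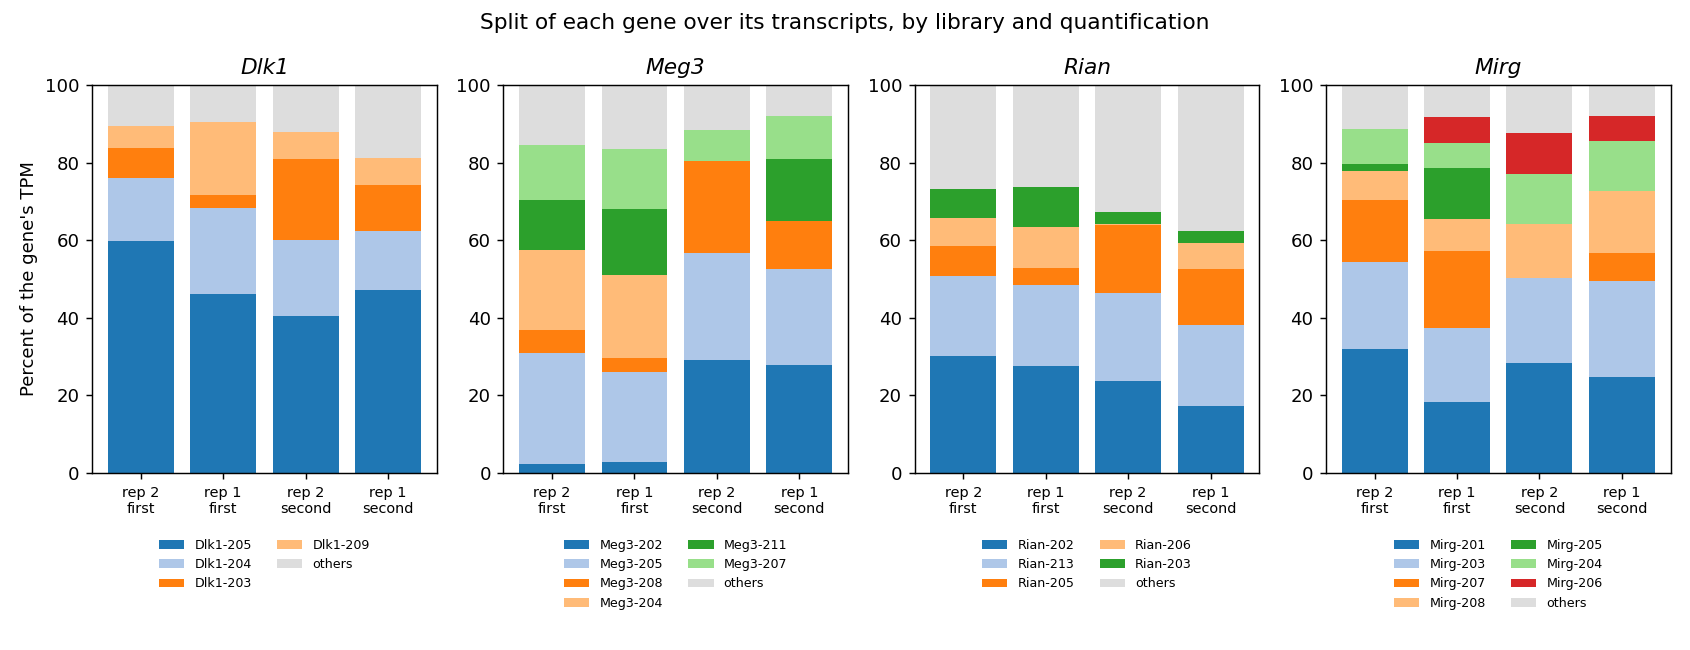
Percent of the TPM of Dlk1, Meg3, Rian and Mirg on each transcript, as stacked bars for each library (replicate 2 left of replicate 1) under the first and the second quantification, with transcripts under 10% in every bar gathered as others. Dlk1-205 is the largest part of Dlk1 in all 4 bars, between 40.4% and 59.7%, while Meg3-202 is small under the first quantification and leads under the second.

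Of the 6 cluster genes with more than 1 transcript, 4 had the same leading transcript in both libraries under the first quantification and 2 under the second. Dlk1 was the only one with the same leading transcript in both libraries and both quantifications. The split of Dio3 depended on the quantification, with Dio3-201 at 89.37% in replicate 2 and 78.9% in replicate 1 under the first, and at 50.2% and 11.5% in the same libraries under the second.

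Among 28 imprinted genes, made up of the 7 cluster genes and 21 others, the cluster supplied 3 of the 4 most abundant in both libraries. The 21 others were a chosen list, picked with earlier results of these data known, so the ranks hold among these 28 only. The order was Meg3, Cdkn1c, Dlk1, Rian and Peg10 in each. Cdkn1c, a cell-cycle inhibitor of chromosome 7, was at 298.08 TPM in replicate 2, against 140.62 TPM in replicate 1. Mirg stood at rank 11 in replicate 2 and 13 in replicate 1, and Rtl1, Dio3 and Begain ranked between 22 and 26. Of the 21 other imprinted genes 17 were at 1 TPM or more in both libraries, and of their 16 tested members 4 were higher and 4 lower in replicate 2, with a median log2 ratio of 0.02, where 17.6% of all tested genes were called higher and 15.9% lower. Peg10 was lower in replicate 2 by a log2 ratio of -0.58 (exact binomial adjusted p = 7.4e-270).

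The genes that flank the cluster were broadly read. Of 11 flanking genes 10 were at 1 TPM or more in both libraries, with Hsp90aa1, a cytosolic chaperone, at 152.31 TPM in replicate 2, against 150.45 TPM in replicate 1 as the most abundant. Of the 9 tested, 2 were lower in replicate 2, Hsp90aa1 at -0.79 (exact binomial adjusted p = 8.6e-227) and Dync1h1 at -0.06 (exact binomial adjusted p = 0.012), and none was higher, beside 15.9% of all tested genes called lower and 17.6% called higher.

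Genes that act with the cluster's proteins were present. Of 13 genes of the Notch pathway and relatives of Dlk1, 10 were at 1 TPM or more in both libraries, led by the receptor Notch2 at 26.64 TPM in replicate 2, against 10.99 TPM in replicate 1. The close relative Dlk2 held 1 count in replicate 2 and 3 counts in replicate 1. Of the 11 tested, 4 were higher in replicate 2, Notch1, Notch2, Notch4 and Dll4, and none was lower, with a median log2 ratio of 0.04. Of all tested genes 33.5% were called in either direction, 17.6% higher and 15.9% lower. The share of this list called in either direction was near that of all tested genes, but all 4 calls were higher in replicate 2.

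Of 10 genes that handle thyroid hormone, 5 were at 1 TPM or more in both libraries. The receptor genes Thrb, at 41.23 TPM in replicate 2, against 16.22 TPM in replicate 1, and Thra, at 29.45 and 17.33 TPM in the same libraries, led the list. Dio2, which encodes the deiodinase that activates thyroid hormone, had 144 counts in replicate 2 and 568 in replicate 1, a log2 ratio of -3.65 (exact binomial adjusted p = 7.6e-216), and was the only tested gene of the list 2-fold or more apart. Ttr, a plasma carrier of thyroid hormone made in liver, had 3 counts in replicate 2 and 179 in replicate 1. The liver and adipocyte markers differed in the same direction, with the sums given above, and their part in these values was not tested.

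Of 10 genes known to act on the imprint or on chromatin of the cluster, 8 were at 1 TPM or more in both libraries, led by Trim28 at 90.07 TPM in replicate 2, against 62.50 TPM in replicate 1. Zfp57, whose protein recruits TRIM28 to methylated imprinting control regions, was at 1.24 TPM in replicate 2, against 0.52 TPM in replicate 1. Of the 8 tested, 1 was called, Dnmt1 at -0.14 (exact binomial adjusted p = 0.027), beside 33.5% of all tested genes. Among 10 relatives of Rtl1 that also derive from retrotransposons, 7 were at 1 TPM or more in both libraries, led by Peg10 and Rtl8a, and among 6 synaptic scaffold genes related to Begain's partners all 6 were, led by Dlg2 at 48.77 TPM in replicate 2, against 26.98 TPM in replicate 1.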

How the data were processed

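Total RNA of 2 adrenal gland libraries in 1 group was analysed. The authors deposited, for each library, a gene table and a first transcript table with expected counts, TPM, FPKM and, per transcript, the percent of the gene's abundance, and a second transcript table with estimated counts and TPM. Per a note deposited with the files, the build was mm10 with GENCODE M21. The sources used here do not name the program, its version or its strand setting. Sequences came from RefSeq (GRCm38.p6) and GENCODE M21 transcripts. Of 69 microRNA entries, 61 matched the RefSeq table by symbol.

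Levels are deposited TPM. Coding TPM rescales them to nuclear coding genes other than Lars2. Expected counts were rounded, scaled by TMM (edgeR 4.0.16, R 4.3.3) and compared with a prior count of 1, with an exact conditional binomial test (scipy 1.17.1, Python 3.11.15) adjusted over genes averaging 100 counts or more, at a threshold of 0.05. Intervals are Clopper-Pearson at 95% and, like the test, cover counting error only. Without molecular identifiers, reads are not independent molecules. The log2 ratio, the test and the intervals were tested on simulated Poisson counts with known depths. That simulation held no spread between samples and no estimated scale, so it cannot show how the test behaves on this pair. No replicated test was possible with 1 group of 2 libraries. The named genes are all 7 cluster genes, up to 4 of the most abundant genes of each list, and genes of the interval at 1 TPM or 10 counts in both libraries. Notch1, Dll4, Dlk2, Dio2, Ttr, Dnmt1, Zfp57 and Mir433 were named after their values were seen. The cluster genes, the gene lists and the coding TPM scale were chosen with earlier results of these data known. Alternatives were other scalings, count minimums, TPM thresholds, the second quantification and each library alone. Spike-ins held 268855 counts in replicate 2 and 91551 in replicate 1. Figures used matplotlib 3.10.9.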

Additional observations from a re-analysis of the deposited data

How the results depend on the processing

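The number of cluster genes at 1 TPM or more in both libraries was 4, and 5 under the second quantification. It was 7 on coding TPM, at 0.5 TPM or by a count above 0, with 4 to 6 when a single library was read. The number called was 3, and 5 by total counts and 4 by spike-ins, and the number 2-fold or more apart was 0, and 3 by total counts. The number of genes of the interval at 1 TPM or more was 8, and 8 to 14 in single libraries. The same leading transcript in both libraries was seen for 4 genes, and for 2 in the second quantification.

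By expected counts Meg3 over Dlk1 was 1.77, Rian over Meg3 0.486, Mirg over Meg3 0.050 and Rtl1 over Dlk1 0.0201. By the second quantification Meg3 over Dlk1 was 1.45, Rian over Meg3 0.708, Mirg over Meg3 0.0561, Dio3 over Dlk1 0.00300 and Rtl1 over Dlk1 0.00453. Counts are not divided by length, which sets them apart from TPM by construction. For the other changes the cause was not tested.

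The log2 ratio of Rtl1, -0.01, turned to 0.87 by total counts, 0.12 by spike-ins, 0.01 by coding gene counts and 0.01 in the second quantification. That of Rian, -0.03, turned to 0.86 by total counts, 0.10 by spike-ins and 0.01 in the second quantification. Dlk1, Meg3 and Mirg stayed higher in replicate 2 under every scaling and quantification tried. No paired analysis of samples was possible because the 2 libraries form 1 group.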
